A study of Homo sapiens with 6 samples.

Results

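MM.1S is a human multiple myeloma line, established from a tumour of plasma cells, the cells that secrete antibodies. The results described here are those of the cells that carried shRNA 1, the first of 2 short hairpin RNAs directed against IRF3, set against cells with a scrambled control hairpin. Members were all genes of that comparison with a mean normalised read count of at least 50 in the authors' deposited table, which left 12977 of 33095 genes (39.2%). At this limit, HDX and LOC101927752 (means of 50.1 in the authors' deposited table) lay just inside, and CYB5R2 (49.95) and CNTNAP2 (49.9) just outside. Every arm was MM.1S grown in RPMI medium with serum and transduced with lentivirus, so that the controls also carried a virus and a hairpin. The arms were scramble, shRNA 1 and shRNA 2, with 2 poly(A)-selected RNA-seq libraries each and 6 in all. No transduction time, selection or viral dose is given here, and separate cultures for the libraries within an arm are not stated in the labels. The p-values thus reflect the spread between libraries alone, and that spread may be technical. The files used here hold comparisons only, so single libraries have no value below, the depth of each is unknown, and a group is given by its reconstructed mean in normalised read counts. That mean was solved from the deposited mean over all 6 libraries and both deposited fold changes, and it has no error of its own.

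IRF3 is a transcription factor that rests in the cytoplasm until sensors of foreign or misplaced nucleic acids, acting through adaptors such as MAVS, STING and TRIF, lead the kinases TBK1 and IKBKE to phosphorylate it. It then enters the nucleus, binds interferon-stimulated response elements and induces type I interferon and a set of antiviral genes. Secreted interferon acts through the receptor IFNAR, JAK kinases and STAT factors on a wider set of genes. In plasma cells and myeloma, the related factor IRF4 is the family member known for its role in cell identity.

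IRF3 (ENSG00000126456) had a reconstructed mean of 2809 normalised read counts in scramble and 974 with shRNA 1. Its level with shRNA 1 was 0.347 times that of scramble, a log2 fold change of -1.53 ± 0.10 (SE, authors' deposited table, DESeq2 adjusted p = 8.45e-46). The libraries labelled shRNA 2 had a reconstructed mean of 2476, close to scramble, so they are named by their label throughout. In bulk RNA, a lower level in every cell and a larger share of cells without the transcript cannot be told apart. The difference between the hairpins for IRF3 was -1.35 ± 0.15 (log2, SE, from the authors' deposited values). It is given as a description, because shRNA 1 was taken up here as the arm in which the targeted mRNA was lower. IRF3 shares exon sequence with BCL2L12 on the opposite strand, which had a log2 fold change of -0.05 ± 0.17 in the authors' deposited table and was not called.

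Many of the genes that were lowest with shRNA 1 shared a short stretch of sequence. Runs of 7 bases held in the 3' UTR by a minimum number of genes were ranked by the log2 fold changes of those genes. This was done after regression on 3' UTR length and base composition, and GTGAGGC stood first with shRNA 1. The same run ranked 1502 for the libraries labelled shRNA 2. After the regression, its genes had a mean of -0.13 with shRNA 1 and -0.02 in the libraries labelled shRNA 2. The run was found with the same log2 fold changes that are set beside it below, so all counts on it describe these libraries and carry no test. The IRF3 transcript itself (ENST00000309877.11, GENCODE 29, GRCh38) holds 1 copy, in the coding part of its exon 5, of 7 exons, at chr19:49662134-49662158 on the minus strand. The lines show 25 bases around that copy and around the 7 copies that the 20 strongest lower genes hold in their 3' UTR, 5′ to 3′ on the transcript, with the shared run in capitals.
IRF3 coding part: atgagctacGTGAGGCatgtgctga
KIF1C 3' UTR: ggactgagaGTGAGGCaagttctcc
PGM1 3' UTR: cagcagtgaGTGAGGCcattcttca
TMED9 3' UTR: atcagggatGTGAGGCtgctgttgg
NUDT3 3' UTR: gaggaggcaGTGAGGCcccaccttg
NOP10 3' UTR: tatgcttgtGTGAGGCaatcatggt
RSU1 3' UTR: atgctgcgtGTGAGGCcttttttat
HNRNPF 3' UTR: taggaattgGTGAGGCcttgactta
These lie at chr17:5024501-5024525 (KIF1C, plus strand), chr1:63659991-63660015 (PGM1, plus), chr5:177595701-177595725 (TMED9, plus) and chr6:34281223-34281247 (NUDT3, minus). The others lie at chr15:34341808-34341832 (NOP10, minus), chr10:16593284-16593308 (RSU1, minus) and chr10:43386129-43386153 (HNRNPF, minus), all in the last exon and on GRCh38. Outside the run, the windows differ from that of IRF3 and from each other.

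The same run stood upstream of the 3' UTR in another 7 of the 20 strongest lower genes. It was found in the coding part of LRRC59 (2 copies), LRP10 (2 copies), RETREG2 (2 copies), AKAP2, ASNA1 and PPM1G, and in the 5' UTR of TRIM44. Examples from coding parts are shown here, because they carry the same capitals without a 3' UTR site.
LRRC59 coding part: agaagaagcGTGAGGCtaagcagcg
LRP10 coding part: gctgctacaGTGAGGCacagcgctg
ASNA1 coding part: gcaagatgtGTGAGGCccgtcacaa
PPM1G coding part: ttcccactgGTGAGGCtgggccttc
They lie at chr17:50385261-50385285 (LRRC59, minus strand), chr14:22875937-22875961 (LRP10, plus), chr19:12747543-12747567 (ASNA1, plus) and chr2:27384779-27384803 (PPM1G, minus). In all, 14 of the 20 strongest lower genes (70.0%) held the run somewhere in the transcript, against 21.9% of 11229 protein-coding members with a usable 3' UTR. These shares were not matched for transcript length. PECAM1, CCL3L1, RRBP1, HOMER3, TXNRD1 and TOMM7 held none. The hairpin's own sequence was not used here, and the cause of the pattern was not tested.

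At an adjusted p below 0.05, 3509 genes (27.0% of the 12977) differed between shRNA 1 and scramble in the authors' deposited table. Of these, 1378 (10.6%) were higher and 2131 (16.4%) lower. Both shares are the background for every list count given below, but they are not matched for expression. Of the 4367 genes with a mean of 1000 to 5000, 612 were higher and 1026 lower. A list of abundant genes can thus lie above both shares with no trait of its own. At least 2-fold changes were called in 188 higher and 274 lower genes, and at least 4-fold changes in 20 and 17. The median log2 fold change over all 12977 genes was -0.04, with quartiles of -0.29 and 0.19. Recentred on the median gene, 1654 were higher and 1818 lower. The share called grew with expression, from 10.2% of the genes with a mean of 50 to 200, where the median SE was 0.36, to 49.9% of those with a mean above 5000, where it was 0.08. Protein-coding genes were lower in 18.2% and higher in 11.1% of cases, whereas 1.76% of antisense and 3.12% of lincRNA genes were lower and 6.15% and 8.52% higher.

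**Figure D1:**
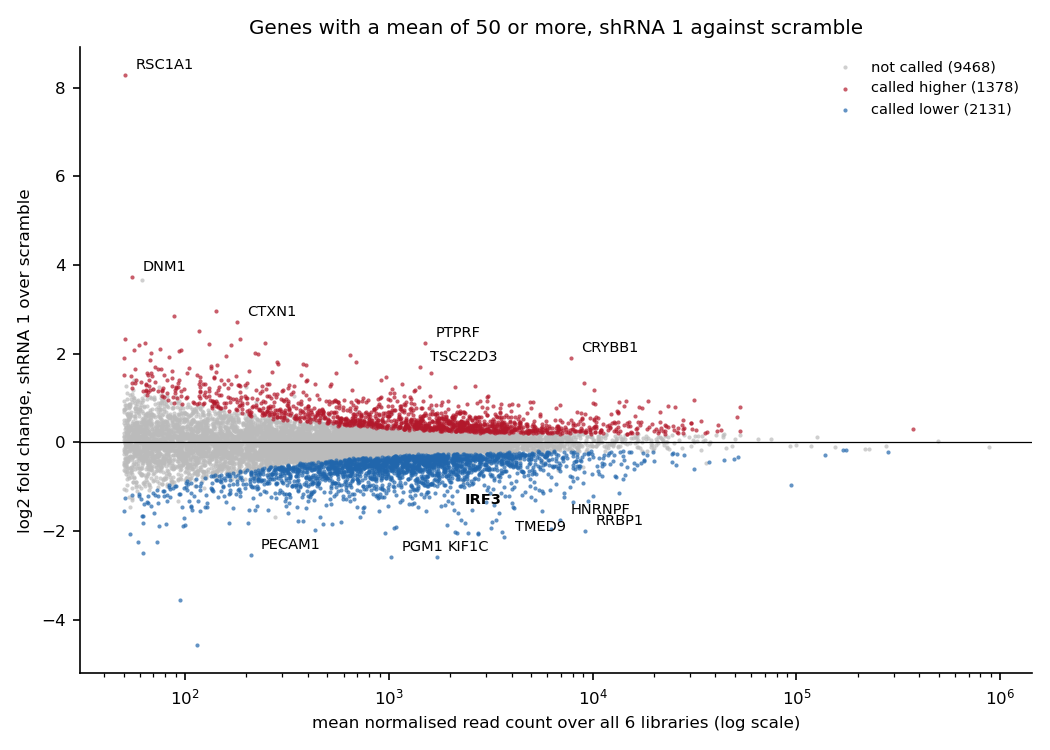
Log2 fold change of each gene with shRNA 1 over scramble (vertical axis) against its mean normalised read count over all 6 libraries (horizontal axis, log scale); red and blue points are the 1378 genes called higher and the 2131 called lower at an adjusted p below 0.05, grey points were not called. IRF3 (-1.53) lies among the lowest abundant transcripts, below which sit genes such as KIF1C (-2.58), PGM1 (-2.59) and TMED9 (-2.13).

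The 20 genes whose decrease was largest at the near bound of its 95% interval are ordered here by what their products are known for, an order made after the genes were seen and not tested. KIF1C, a kinesin motor that carries vesicles along microtubules, went from a reconstructed mean of 2851 in scramble to 478 with shRNA 1. Its log2 fold change was -2.58 ± 0.12 (SE, authors' deposited table, DESeq2 adjusted p = 1.65e-103). RRBP1, a ribosome-binding protein of the rough endoplasmic reticulum (ER), was the most abundant of the 20 and went from 14365 to 3601 (reconstructed means). LRRC59, another ribosome-binding ER membrane protein, went from 4008 to 979.7, and TMED9, which sorts cargo between ER and Golgi, from 5168 to 1182. Their log2 fold changes were -1.996 ± 0.09, -2.03 ± 0.10 and -2.13 ± 0.09 (SE, authors' deposited table), decreases of 3.99-, 4.09- and 4.37-fold. ASNA1 (now GET3), the ATPase that delivers tail-anchored proteins to the ER, was at -1.92 ± 0.13 in that deposited table. RETREG2, of the reticulophagy regulator family, was at -1.81 ± 0.10, and TOMM7, a subunit of the import pore of the outer mitochondrial membrane, at -1.87 ± 0.12 (SE, authors' deposited table). LRP10, a receptor of the LDL receptor family, was at -2.02 ± 0.11. Reads of LRRC59 and RETREG2 can overlap with those of EME1 and CNPPD1 on the opposite strand, at -0.03 and -0.46 in the authors' deposited table.

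The enzymes and nuclear proteins among the 20 come next. PGM1, the phosphoglucomutase that links glycogen to glycolysis, went from a reconstructed mean of 1587 to 263, a log2 fold change of -2.59 ± 0.13 (SE, authors' deposited table, DESeq2 adjusted p = 7.74e-83). PGM1 shares exon sequence with ITGB3BP on the opposite strand, at -0.26 ± 0.15 and not called (SE, authors' deposited table). NUDT3, which cleaves diphosphoinositol polyphosphates, was at -2.04 ± 0.11, and its readthrough neighbour RPS10-NUDT3, with which it shares exons, at -1.13 ± 0.23 (SE, authors' deposited table). TXNRD1, the cytosolic thioredoxin reductase, was at -1.92 ± 0.11 (SE, authors' deposited table). NOP10, a core protein of the H/ACA particles that guide pseudouridylation, was at -2.03 ± 0.15 (SE, authors' deposited table). HNRNPF, a splicing regulator, went from 9794 to 2905 (reconstructed means) and had the lowest SE of the 20, with a log2 fold change of -1.75 ± 0.08 in the authors' deposited table. The protein phosphatase PPM1G was at -1.80 ± 0.10 and TRIM44, of the tripartite motif family, at -2.07 ± 0.13 (SE, authors' deposited table).

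The remaining genes of the 20 encode scaffolds, adhesion proteins and a chemokine. AKAP2, an anchor of protein kinase A, went from a reconstructed mean of 9235 to 2382, a log2 fold change of -1.95 ± 0.09 (SE, authors' deposited table). RSU1, a member of an integrin-linked adhesion complex, was at -1.93 ± 0.14, and HOMER3, a scaffold of the Homer family, at -2.01 ± 0.11 (SE, authors' deposited table). PECAM1, an adhesion molecule of endothelial and blood cells, was the least abundant, from 438 to 74.9 (reconstructed means), at -2.55 ± 0.26 in the authors' deposited table. CCL3L1, a near-identical copy of the chemokine gene CCL3 whose copy number varies between genomes, was at -2.03 ± 0.11 (SE, authors' deposited table), and the split of reads between both is uncertain. In the libraries labelled shRNA 2, compared with the same scramble libraries, 10 of the 20 were called lower, 0 higher and 10 not called. Their median there was -0.20, against -2.02 with shRNA 1. Of all 12977 members, 4725 were called in that comparison, in either direction. The shared scramble libraries by themselves pull both fold changes the same way. The difference between the hairpins passed in 19 of the 20, the exception being PECAM1 (adjusted p of 0.207), in the z test on the authors' deposited values. The difference passed in 27.0% of all members. These 20 were ranked by the same shRNA 1 fold changes that enter it, so their count is a description. CCL3L1 went the other way in this test, being lower in the libraries labelled shRNA 2 (-2.99 ± 0.11) than with shRNA 1.

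The 20 genes with the strongest increase are ordered in the same way, again with no test of any grouping. DNM1, the dynamin of synaptic endocytosis, rose from a reconstructed mean of 10.2 to 135, a log2 fold change of 3.73 ± 0.56 (SE, authors' deposited table). MAP2 and MAPT, which bind microtubules in dendrites and axons, were at 2.23 ± 0.26 and 1.77 ± 0.20 (SE, authors' deposited table). RIMS3, a protein of the presynaptic release site, was at 1.81 ± 0.15, and CTXN1, cortexin 1, at 2.72 ± 0.29 (SE, authors' deposited table). ARVCF, a catenin that binds cadherins, was at 2.33 ± 0.31 (SE, authors' deposited table). DNM1 shares exon sequence with CIZ1 on the opposite strand, at -0.76 ± 0.10 in the authors' deposited table, and ARVCF overlaps a gene on the opposite strand, so the levels of both are uncertain.

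PTPRF, the receptor tyrosine phosphatase LAR, went from a reconstructed mean of 457 to 2169, at 2.25 ± 0.16 (SE, authors' deposited table, DESeq2 adjusted p = 6.3e-40). ITGAM, the integrin chain CD11b of myeloid cells, was at 2.85 ± 0.44, from 21.7 to 156 (reconstructed means). TNFRSF25, death receptor 3, was at 2.52 ± 0.36, VSIG1, of the immunoglobulin superfamily, at 2.21 ± 0.34, and SECTM1, a transmembrane and secreted protein, at 1.75 ± 0.19 (SE, authors' deposited table). TNFRSF25 shares exon sequence on the same strand with PLEKHG5, at 0.14 ± 0.48 and not called, so its level is uncertain. CRYBB1, a crystallin of the lens, was the most abundant of the 20, from 3798 to 14128 (reconstructed means), at 1.90 ± 0.10 (SE, authors' deposited table).

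The remaining genes of the 20 were regulators and non-coding transcripts. TSC22D3, a glucocorticoid-induced leucine zipper protein, rose from a reconstructed mean of 854 to 2769.9, at 1.70 ± 0.12 (SE, authors' deposited table). ID1, an inhibitor of helix-loop-helix transcription factors, was at 1.99 ± 0.24 and BSPRY at 1.56 ± 0.11 (SE, authors' deposited table). MIR210HG, the host transcript of a hypoxia-inducible miRNA, was at 1.81 ± 0.21, MIR3648-1 at 2.01 ± 0.29, MIR663A at 2.09 ± 0.37 and LINC02363 at 2.24 ± 0.44 (SE, authors' deposited table). MIR663A shares exon sequence on the same strand with its host transcript MIR663AHG, itself at 1.53 ± 0.20 in the authors' deposited table, so its level is uncertain. RSC1A1, whose annotated exon lies within DDI2, had the largest value, 8.28 ± 1.56, from a reconstructed mean of 0.188 in scramble, and its level cannot be separated from that of DDI2, which was at -0.40 ± 0.11 (authors' deposited table). In the libraries labelled shRNA 2, against the same scramble libraries, 10 of these 20 genes were called higher and 1 lower. Their median there was 0.67, against 2.15 with shRNA 1. Of all 12977 members, 4725 were called in that comparison, in either direction. The difference between the hairpins passed in 14 of the 20, against 27.0% of all members. These 20 too were ranked by the shRNA 1 fold changes that enter it, so the count is a description. TSC22D3 was the gene called lower in the libraries labelled shRNA 2, at -0.42 ± 0.13 (SE, authors' deposited table). PTPRF and MAPT, at 2.05 ± 0.16 and 1.66 ± 0.20 in the libraries labelled shRNA 2, did not pass the test of the difference (adjusted p of 0.607 and 0.827).

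**Figure D2:**
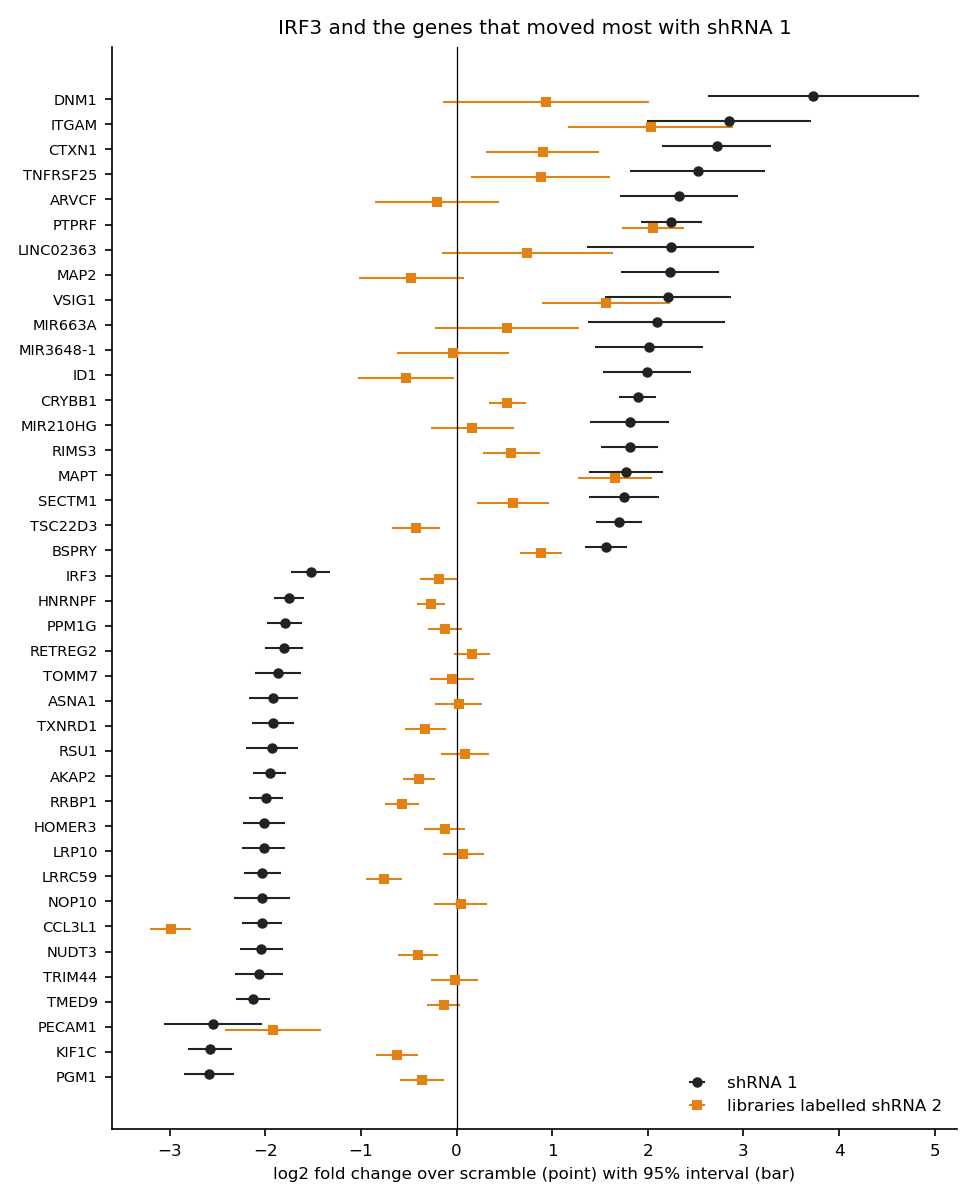
Log2 fold change over scramble (points) with its 95% interval (bars) for IRF3, the 20 strongest lower genes and 19 of the 20 strongest higher genes (RSC1A1, at 8.28, is left out for scale), in black for shRNA 1 and orange for the libraries labelled shRNA 2; both use the same 2 scramble libraries. The 20 lower genes lie between -2.59 and -1.75 with shRNA 1, and their median in the libraries labelled shRNA 2 is -0.20.

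Across all 11229 protein-coding members with a usable 3' UTR, 18.2% were called lower. The share was 16.5% in the 10143 genes with 0 copies of GTGAGGC in the 3' UTR, 32.8% in 954 genes with 1 copy, 37.0% in 108 with 2 and 45.8% in 24 with 3 or more. Median log2 fold changes with shRNA 1 in the same order were -0.04, -0.16, -0.25 and -0.36, and in the libraries labelled shRNA 2 they were -0.07, -0.09, -0.06 and 0.09. Copies outside the 3' UTR only went with 24.6% lower calls in 1373 genes. This share was not matched for transcript length. Of 5 equal groups by transcript length, the longest had 24.8% lower calls and the shortest 11.4%, with or without the run. Read the other way, 29.3% of the 256 genes that were lower by at least 2-fold held the run in the 3' UTR. This was 16.2% of the genes lower by less, 8.03% of the genes not called, and 6.64% and 7.89% of the genes higher by less and by more than 2-fold. Genes with long 3' UTRs have more room for any run, and lower genes had longer ones. The median was 1575 bases in genes lower by at least 2-fold, 1539.5 in genes lower by less and 1083.5 in genes not called. With the genes divided into 3 equal groups by 3' UTR length, 40% of the 80 genes with the run in the shortest group were called lower, against 12.9% of 3663 without. The shares were 33.2% and 16.9% in the middle group and 32.9% and 20.5% in the longest. The run was picked with these same log2 fold changes, so the shares are a description and carry no test of length.

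**Figure D3:**
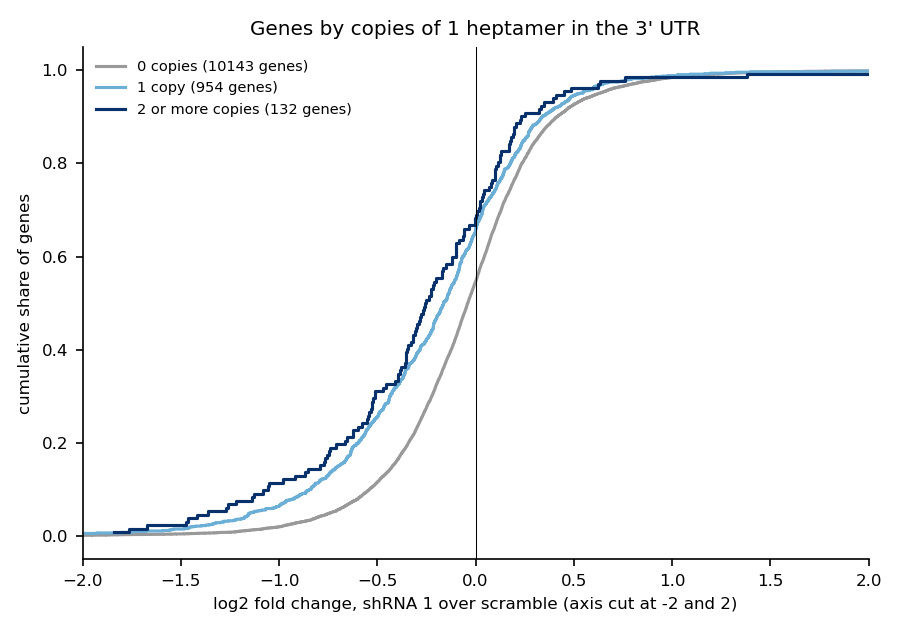
Cumulative share of protein-coding genes (vertical axis) by log2 fold change with shRNA 1 over scramble (horizontal axis), for genes with 0 copies (grey), 1 copy (light blue) and 2 or more copies (dark blue) of the run of 7 bases in the 3' UTR. The curves with copies lie to the left of the curve without. Medians are -0.04 at 0 copies, -0.16 at 1, -0.25 at exactly 2 and -0.36 at 3 or more, the last groups being drawn as 1 curve.

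Of 27 sensors, adaptors and kinases upstream of IRF3, 2 were higher (7.41%, against 10.6% of all genes) and 7 lower (25.9%, against 16.4%), with a median log2 fold change of 0.01 (from the authors' deposited table). MAVS, the mitochondrial adaptor of RNA sensing, went from a reconstructed mean of 3903 to 2338, a log2 fold change of -0.74 ± 0.09 (SE, authors' deposited table). TRIM25 and TRIM56, ubiquitin ligases that act on RNA and DNA sensing, were at -0.65 ± 0.08 and -0.33 ± 0.09, and the Fc receptor and ubiquitin ligase TRIM21 was at -0.62 ± 0.15 (SE, authors' deposited table). The kinase IKBKE was higher, at 0.61 ± 0.10, whereas TBK1, at 0.06 ± 0.12, was not called (SE, authors' deposited table). The DNA sensor IFI16 was at 0.25 ± 0.08 and the sensor of Z-form nucleic acids ZBP1 at -0.31 ± 0.09 (SE, authors' deposited table). The DNA sensor CGAS was at -0.24 ± 0.17, the RNA sensors DDX58 (RIG-I) and IFIH1 (MDA5) at 0.43 ± 0.25 and 0.17 ± 0.10, and the adaptor TICAM1 (TRIF) at 0.16 ± 0.12, and these were not called (SE, authors' deposited table). MYD88, the adaptor of most Toll-like receptors, which was not in that list, was at -1.06 ± 0.15 and was named after its value was seen.

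Genes that IRF3 is known to induce directly gave 2 higher (16.7%) and 1 lower (8.33%) of 12 members, with a median of 0.04, by the authors' deposited table. The shares over all genes were 10.6% and 16.4%. IFIT3, an antiviral protein of the IFIT family, rose from a reconstructed mean of 137 to 225, at 0.72 ± 0.27 (SE, authors' deposited table, DESeq2 adjusted p = 0.0371). ATF3, a stress-induced transcription factor, was at 0.91 ± 0.14, and ISG20, an exonuclease, at -0.36 ± 0.13 (SE, authors' deposited table). ISG20 was no longer called after recentring on the median gene, nor when p-values were adjusted over every gene. That adjustment also ended the call of IFIT3. A set of double-stranded RNA response genes gave 3 higher (27.3%) and 1 lower (9.09%) of 11. MX1, a GTPase that restricts viruses, was at 0.47 ± 0.14, the kinase EIF2AK2 at 0.27 ± 0.10, and the 2-5A synthetase OAS2 at -0.34 ± 0.13 (SE, authors' deposited table). EIF2AK2 and OAS2 were not called with p-values adjusted over every gene, and OAS2 was also not called after recentring.

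The interferon receptor and JAK-STAT list had the largest share of lower genes of all lists and gene families with at least 10 members, at 11 of 21 (52.4%), with 3 higher and a median of -0.30, by the authors' deposited table. STAT5A, a signal transducer of many cytokines, went from a reconstructed mean of 72.9 to 27.1, a log2 fold change of -1.43 ± 0.46 (SE, authors' deposited table, DESeq2 adjusted p = 0.0108). STAT3, on which interleukin 6 acts, was at -0.64 ± 0.12, and STAT2, of the type I interferon response, at -0.51 ± 0.08 (SE, authors' deposited table). STAT6 was higher at 0.34 ± 0.09 (SE, authors' deposited table). Among receptors, IL6ST and IL6R, both chains of the interleukin 6 receptor, were at -0.43 ± 0.09 and -0.29 ± 0.09, IL10RB at -0.65 ± 0.11 and IFNGR1 at -0.60 ± 0.17 (SE, authors' deposited table). IFNGR2 was higher, at 0.30 ± 0.10 (SE, authors' deposited table). IFNAR2 was at -0.35 ± 0.09 under its main identifier, and a second identifier with that symbol that spans a longer stretch of chromosome 21 was at -4.57 ± 0.73 (SE, authors' deposited table). Both identifiers begin at the same base, with deposited means of 2953 and 114, so the split of reads between them is uncertain. SOCS2, a feedback inhibitor of STAT5, was at -0.80 ± 0.26 (SE, authors' deposited table).

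Promoters were searched because IRF proteins bind a known element. Of the members, 9725 matched a RefSeq promoter (GRCh38.p14, 250 bases before to 50 after the start). The core of the response element, GAAA and GAAA with any 2 bases between them (both strands), was present in 2.91% of these promoters and in 3.65% of all 27305 promoters. It was present in 3.43% of the promoters of higher genes (36 of 1049) and in 2.24% of those of lower genes (39 of 1740). Genes with it had a median log2 fold change of -0.02. The 30-base windows below, printed in the direction of transcription with the element in capitals, are from interferon-related genes chosen after their values were seen, to show that the element occurred in genes on both sides.
GBP4: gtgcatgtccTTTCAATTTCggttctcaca
GBP3: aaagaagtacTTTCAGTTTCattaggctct
IFI44: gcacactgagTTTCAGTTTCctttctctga
MYD88: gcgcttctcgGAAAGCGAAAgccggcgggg
PSME1: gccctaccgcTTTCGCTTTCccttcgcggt
TRIM21: cttctgagcgGAAACTGAAAgtgaaatagg
TAP2: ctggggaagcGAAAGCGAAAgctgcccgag
The higher genes are GBP4 (chr1:89198927-89198956, minus strand), GBP3 (chr1:89022845-89022874, minus) and IFI44 (chr1:78649761-78649790, plus), at 0.98 ± 0.20, 0.77 ± 0.12 and 0.94 ± 0.31 in the authors' deposited table. GBP3 and GBP4 are interferon-induced guanylate-binding proteins. The lower genes are MYD88 (chr3:38138590-38138619, plus strand), PSME1 (chr14:24136189-24136218, plus), TRIM21 (chr11:4393666-4393695, minus) and TAP2 (chr6:32838778-32838807, minus). PSME1, a subunit of the proteasome activator PA28, was at -0.71 ± 0.09, and TAP2, of the peptide transporter for MHC class I, at -0.59 ± 0.10 (SE, authors' deposited table).

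Of the other elements searched on both strands, the CCAAT box (CCAAT) was in 40.5% of promoters of lower genes, 35.8% of those of higher genes and 37.3% of all members. The NF-kB element (GGGA and CCC with any 3 bases between them) was in 8.33%, 11.2% and 9.42%, the E2F element (TTTCCCGC) in 3.16%, 2.19% and 2.62%, and the AP-1 element (TGANTCA) in 4.14%, 4.39% and 4.16%, in the same order. The shares over all RefSeq promoters were 35.7%, 7.23%, 1.66% and 7.76%. A match is a description of the letters and no evidence of binding.

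**Figure D4:**
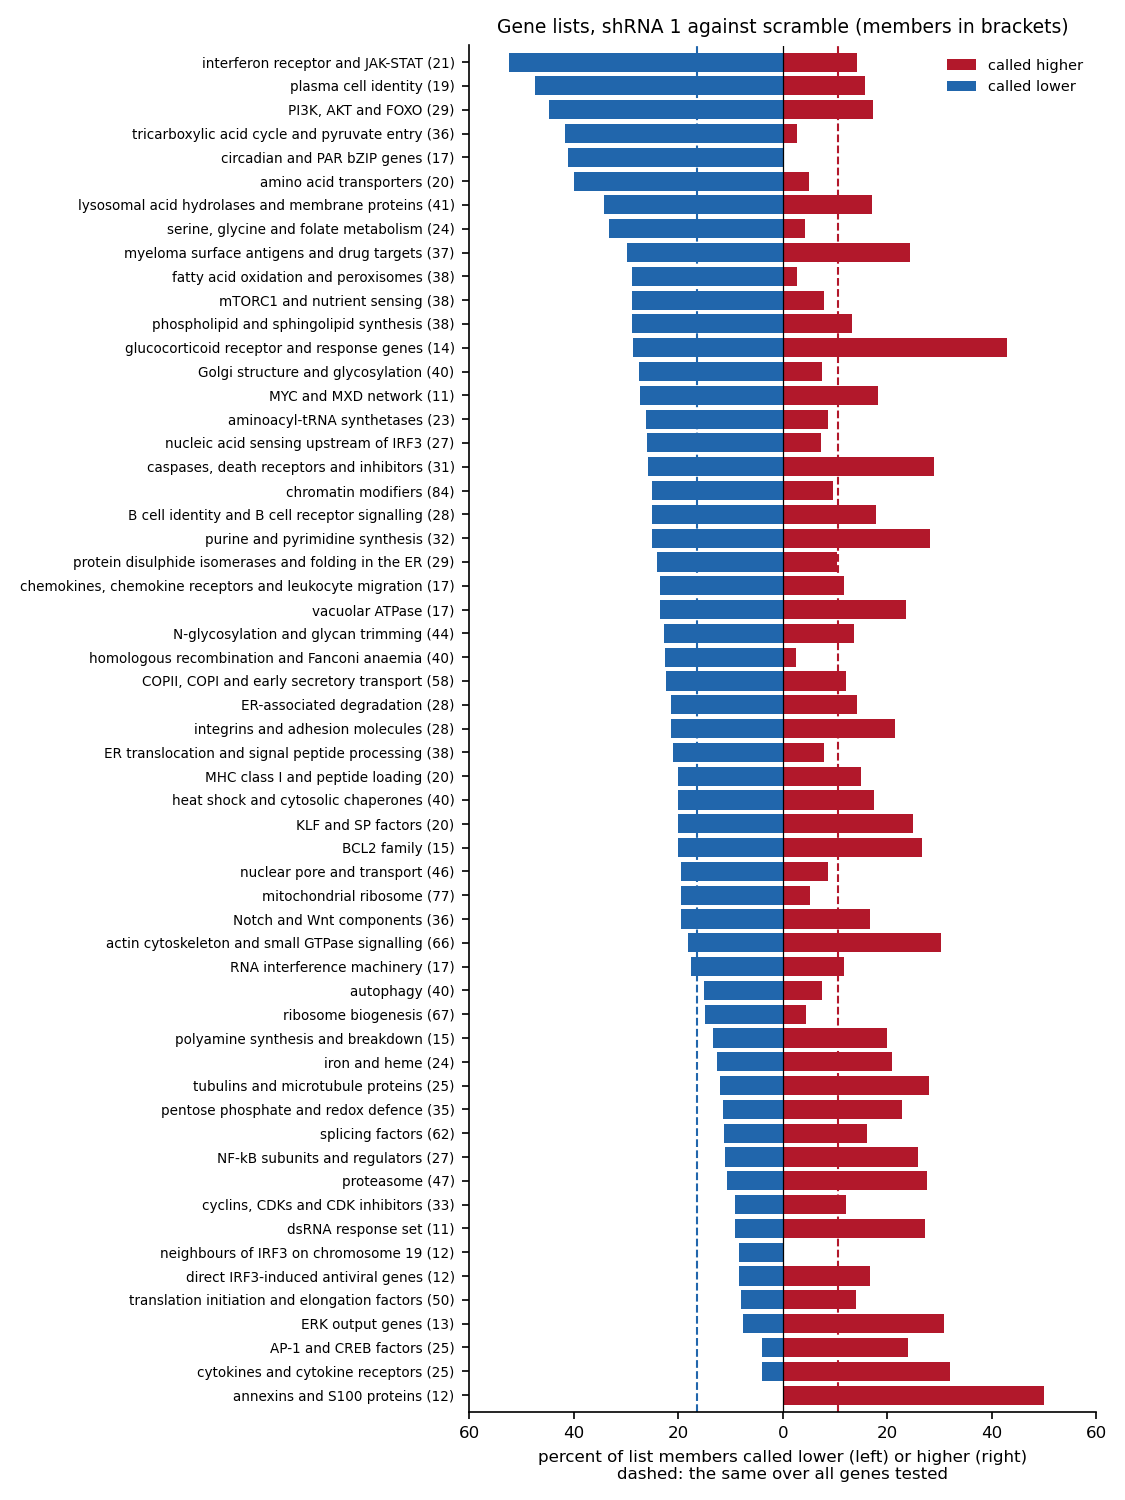
Percent of the members of each gene list that were called higher (red, to the right) or lower (blue, to the left) with shRNA 1, for lists with at least 10 members (their number in brackets). Dashed lines mark the shares over all 12977 genes, 10.6% higher and 16.4% lower. The JAK-STAT list has the longest bar to the left (52.4%). The list of annexins and S100 proteins, which also holds AHNAK, has the longest to the right (50%). Gene families such as the ribosomal proteins, RAB GTPases and ZNF genes are not plotted.

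Over all genes, 16.4% were lower and 10.6% higher, and several metabolic lists lay above the first share and below the second. Of 36 genes of the tricarboxylic acid cycle and of pyruvate entry, 15 were lower (41.7%) and 1 higher (2.78%), with a median log2 fold change of -0.25 (from the authors' deposited table). MPC1 and MPC2, which together form the carrier of pyruvate into mitochondria, were at -1.12 ± 0.17 and -0.49 ± 0.12 (SE, authors' deposited table). IDH2, the mitochondrial NADP-dependent isocitrate dehydrogenase, went from a reconstructed mean of 10055 to 5035, at -0.998 ± 0.08 (SE, authors' deposited table, DESeq2 adjusted p = 1.84e-33). Citrate synthase CS, the entry enzyme of the cycle, went from 6195 to 3505 (reconstructed means), at -0.82 ± 0.09, and IDH3A was at -0.70 ± 0.10 (SE, authors' deposited table). ACLY, which splits citrate in the cytosol, was the 1 higher gene, at 0.25 ± 0.08 (SE, authors' deposited table). Fatty acid oxidation and peroxisome genes gave 11 lower (28.9%) and 1 higher of 38, with a median of -0.16. ACADS, the short-chain acyl-CoA dehydrogenase, was at -1.08 ± 0.29, and the carnitine transferases CPT1A and CPT2 at -0.56 ± 0.09 and -0.65 ± 0.12 (SE, authors' deposited table).

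Amino acid transporters gave 8 lower (40%) and 1 higher of 20, with a median of -0.31, by the authors' deposited table. SLC38A1, a sodium-coupled carrier of glutamine, went from a reconstructed mean of 4473 to 1677, at -1.42 ± 0.10 (SE, authors' deposited table). SLC7A5, the large neutral amino acid carrier, was at -0.38 ± 0.11, SLC36A1, a lysosomal proton-coupled carrier, at -1.16 ± 0.25, and SLC7A1, a carrier of arginine and lysine, at -0.44 ± 0.14 (SE, authors' deposited table). SLC1A5, a glutamine carrier, was the higher member, at 0.27 ± 0.09 (SE, authors' deposited table). Serine, glycine and folate genes gave 8 lower (33.3%) and 1 higher of 24 (median -0.17). MTHFD2 and SHMT2, enzymes of mitochondrial one-carbon metabolism, were at -0.96 ± 0.09 and -0.48 ± 0.10, GLDC, of glycine cleavage, at -0.58 ± 0.12, and PSPH, the last enzyme of serine synthesis, was higher at 0.57 ± 0.22 (SE, authors' deposited table). The call of PSPH was lost with the adjustment over every gene. Purine and pyrimidine synthesis moved both ways, with 9 higher and 8 lower of 32. The adenylate kinase AK4 was at 1.41 ± 0.20, PFAS, of purine synthesis, at -0.68 ± 0.10, and IMPDH1, of guanine nucleotide synthesis, at 0.51 ± 0.10 (SE, authors' deposited table).

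Growth factor and nutrient signalling lists also held lower genes above the 16.4% of all genes. Of 29 genes of PI3K, AKT and FOXO signalling, 13 were lower (44.8%) and 5 higher (17.2%), with a median of -0.27, by the authors' deposited table. The catalytic subunits PIK3CB, PIK3CD, PIK3CG and PIK3CA were at -1.46 ± 0.16, -0.80 ± 0.27, -0.61 ± 0.09 and -0.55 ± 0.12 (SE, authors' deposited table). The insulin receptor INSR and its substrates IRS1 and IRS2 were at -0.76 ± 0.11, -0.68 ± 0.11 and -1.18 ± 0.14 (SE, authors' deposited table). IGF1R, the receptor of insulin-like growth factors, was higher at 0.28 ± 0.10 (SE, authors' deposited table). Of 38 mTORC1 and nutrient sensing genes, 11 were lower (28.9%) and 3 higher (7.89%), with a median of -0.11. MTOR and its partner RPTOR were at -0.37 ± 0.09 and -0.64 ± 0.14, and genes for negative regulators also fell, with DEPTOR at -0.70 ± 0.08, TSC2 at -0.51 ± 0.11, DEPDC5 at -0.77 ± 0.17 and SESN2 at -0.76 ± 0.17 (SE, authors' deposited table). FNIP2, a partner of folliculin, was at -1.48 ± 0.14 (SE, authors' deposited table).

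Redox and iron genes gave 8 higher and 4 lower of 35 (median 0.02) and 5 higher and 3 lower of 24 (median 0.05), by the authors' deposited table. The decrease of TXNRD1 described above stood beside increases of its substrate thioredoxin TXN at 0.54 ± 0.10, of the quinone reductase NQO1 at 1.15 ± 0.22, of haem oxygenase HMOX1 at 0.98 ± 0.16 and of the peroxiredoxin PRDX4 of the ER at 0.55 ± 0.11 (SE, authors' deposited table). Mitochondrial superoxide dismutase SOD2 was at -0.63 ± 0.11 (SE, authors' deposited table). TFRC, which takes up iron, and FTL, which stores it, were at 0.40 ± 0.09 and 0.40 ± 0.07, and NCOA4, the ferritin receptor of autophagy, at -0.69 ± 0.08 (SE, authors' deposited table).

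Plasma cells are built for secretion, and genes of the secretory pathway were called in both directions. COPII, COPI and early transport genes gave 7 higher and 13 lower of 58, with a median of -0.00, near the background in both directions (authors' deposited table). Besides TMED9, the related cargo receptor TMED5 was at -1.10 ± 0.11, the GTPase ARF1 at -0.75 ± 0.08 and the SNARE STX5 at -0.79 ± 0.13 (SE, authors' deposited table). ARF4 and the KDEL receptor KDELR2, which returns ER proteins, were at 0.39 ± 0.13 and 0.42 ± 0.10, both higher (SE, authors' deposited table). Golgi genes gave 3 higher and 11 lower of 40, with a median of -0.06. The lower count was 7 after recentring and 7 when p-values were adjusted over every gene. SLC35A1, the carrier of CMP-sialic acid, was at -1.08 ± 0.17, the tether USO1 at -0.81 ± 0.10, and GOLIM4 at -0.90 ± 0.11 (SE, authors' deposited table).

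Within the ER, translocation genes gave 3 higher (7.89%) and 8 lower (21.1%) of 38, and N-glycosylation 6 (13.6%) and 10 (22.7%) of 44. Folding gave 3 (10.3%) and 7 (24.1%) of 29, and ER-associated degradation 4 (14.3%) and 6 (21.4%) of 28, by the authors' deposited table. All genes together gave 10.6% higher and 16.4% lower. The medians of these ER lists lay between -0.10 and 0.08. Among folding enzymes, TXNDC11 was at -1.13 ± 0.08, PDIA4 at -0.55 ± 0.09, the chaperone HYOU1 at -0.56 ± 0.09, while P4HB, the main protein disulphide isomerase, and the cyclophilin PPIB were at 0.33 ± 0.09 and 0.33 ± 0.09 (SE, authors' deposited table). CALR, the lectin chaperone calreticulin, went from a reconstructed mean of 18489 to 12971, at -0.51 ± 0.07 (SE, authors' deposited table). The receptor complex of tail-anchored proteins followed ASNA1 in part, with WRB at -0.55 ± 0.15, and the insertase subunits EMC3, EMC7 and EMC1 were at -0.54 ± 0.13, -0.51 ± 0.11 and -0.37 ± 0.10, whereas EMC10 was at 0.42 ± 0.11 (SE, authors' deposited table). Of the oligosaccharyltransferase, DAD1 and RPN2 were higher at 0.44 ± 0.11 and 0.22 ± 0.08, and DDOST and STT3A lower at -0.26 ± 0.08 and -0.20 ± 0.08 (SE, authors' deposited table). STT3A was not called after recentring or with the adjustment over every gene. NGLY1, the cytosolic glycanase, was at -0.62 ± 0.10 and UBE2G2, a ubiquitin-conjugating enzyme of this route, at -0.77 ± 0.09, while NPLOC4, a cofactor of the segregase p97, was at 0.67 ± 0.10 (SE, authors' deposited table).

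The proteasome stood on the other side of the background, with 13 higher and 5 lower of 47 genes and a median of 0.15, by the authors' deposited table. PSMB5, the catalytic subunit that bortezomib inhibits, rose from a reconstructed mean of 662 to 1526, at 1.21 ± 0.13 (SE, authors' deposited table, DESeq2 adjusted p = 6.38e-20). The other 12 higher members lay between 0.22 (PSME4) and 0.49 (PSMB9, a subunit of the immunoproteasome) in the authors' deposited table. Of the lower members, PSME1 is given above and the assembly chaperone PSMG1 was at -0.53 ± 0.13 (SE, authors' deposited table). Lysosomal hydrolases and membrane proteins gave 7 higher and 14 lower of 41 (median -0.09). PPT1, the palmitoyl-protein thioesterase, went from a reconstructed mean of 3069 to 918, at -1.74 ± 0.11, GM2A, the activator of ganglioside breakdown, was at -1.51 ± 0.12, and the sulphatase ARSB at -1.42 ± 0.21 (SE, authors' deposited table). CTSZ and CD63 were higher, at 0.44 ± 0.11 and 0.36 ± 0.09 (SE, authors' deposited table). Autophagy genes, with 3 higher and 6 lower of 40, lay near the background.

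Lists of translation differed in their counts. Of 50 ribosomal proteins of the large subunit of the cytosol, 25 (50%) were higher and 0 lower, by the authors' deposited table. Of 31 of the small subunit, 16 (51.6%) were higher and 1 lower. Over all genes, 10.6% were higher and 16.4% lower. Of the 780 genes with a mean above 5000, 210 were higher and 179 lower, and no share matched for expression was taken. The medians of the large and small subunit were 0.20 and 0.22 with shRNA 1, and 0.39 and 0.38 in the libraries labelled shRNA 2. Initiation and elongation factors gave 7 higher and 4 lower of 50, aminoacyl-tRNA synthetases 2 and 6 of 23 (26.1% lower), ribosome biogenesis 3 and 10 of 67 and the mitochondrial ribosome 4 and 15 of 77 (19.5% lower), by the authors' deposited table. KARS, the lysyl-tRNA synthetase, was at -0.93 ± 0.11 and QARS at -0.65 ± 0.08 (SE, authors' deposited table). DDX21, a helicase of ribosomal RNA synthesis, went from a reconstructed mean of 6803 to 3358, at -1.02 ± 0.09, and MRPL11, of the mitochondrial large subunit, was at -1.21 ± 0.15 (SE, authors' deposited table). MRPS18A was at 0.94 ± 0.14, the largest increase of that list (SE, authors' deposited table). The cytosolic ribosomal proteins made up 5.79% of the summed reconstructed means in scramble, 6.92% with shRNA 1 and 8.05% in the libraries labelled shRNA 2. Splicing factors gave 10 higher and 7 lower of 62, with SNRPA1 at 1.17 ± 0.12 and SNRPB at 0.85 ± 0.09, both of the small nuclear ribonucleoproteins, and HNRNPH1, a relative of HNRNPF, at 0.44 ± 0.08 (SE, authors' deposited table).

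The list of annexins and S100 proteins, which also holds AHNAK, gave 6 higher (50%, against 10.6% of all genes) and 0 lower of 12. Its median was 0.51, by the authors' deposited table. AHNAK, a giant scaffold that binds annexins and S100 proteins, went from a reconstructed mean of 1590.4 to 3815, at 1.26 ± 0.14 (SE, authors' deposited table, DESeq2 adjusted p = 1.49e-16). ANXA2, ANXA6, ANXA4, ANXA11 and S100A11 were at 0.85 ± 0.10, 0.60 ± 0.08, 0.58 ± 0.16, 0.44 ± 0.08 and 0.30 ± 0.08 (SE, authors' deposited table). Actin and small GTPase signalling gave 20 higher and 12 lower of 66, with a median of 0.05. The small actin-binding proteins PFN1, TMSB10 and CFL1 were at 0.77 ± 0.08, 0.78 ± 0.09 and 0.38 ± 0.09, and the GTPases RHOB and RHOC at 1.06 ± 0.10 and 0.51 ± 0.18 (SE, authors' deposited table). The exchange factor TIAM1 was at -1.44 ± 0.16, the tropomyosins TPM3 and TPM4 at -0.91 ± 0.08 and -0.77 ± 0.09, and EZR, which ties actin to the membrane, at -0.68 ± 0.10 (SE, authors' deposited table). Beta actin ACTB, at -0.32 ± 0.08, and gamma actin ACTG1, at 0.26 ± 0.09, went in opposite directions, and many processed copies of both genes make the division of their reads uncertain.

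Tubulins and microtubule proteins gave 7 higher and 3 lower of 25, with a median of 0.16, by the authors' deposited table. TUBA1A was at 1.13 ± 0.22 and the dynein light chain DYNLT1 at 0.99 ± 0.21, while DCTN1, the large subunit of dynactin, went from a reconstructed mean of 4353 to 1303, at -1.74 ± 0.11 (SE, authors' deposited table). Kinesins gave 4 higher and 10 lower of 29 (median -0.15), KIF1C having the lowest value. RAB GTPases, which direct vesicles, gave 9 and 9 of 45, from RAB31 at -1.45 ± 0.35 to RAB17 at 1.51 ± 0.40, and ARF and ARL GTPases 9 and 3 of 26, from ARL15 at -1.66 ± 0.52 to ARL2 at 0.92 ± 0.16 (SE, authors' deposited table). Septins, filament-forming GTPases, gave 0 higher and 4 lower of 9.

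At the cell surface, integrins and adhesion molecules gave 6 higher and 6 lower of 28, by the authors' deposited table. SELPLG, the selectin ligand of leukocytes, went from a reconstructed mean of 11313 to 4561, at -1.31 ± 0.08, and NCAM1, the antigen CD56 of many myelomas, from 224 to 89.5, at -1.33 ± 0.33 (SE, authors' deposited table). CD44, a receptor of hyaluronan, was at 0.70 ± 0.08, and ITGB7, an integrin chain of mucosal homing, at 0.29 ± 0.08 (SE, authors' deposited table). Of 17 chemokines and their receptors, 2 were higher and 4 lower, with CCL3 at -1.09 ± 0.11, CCL4L2 at -1.07 ± 0.22 and CX3CR1 at -0.67 ± 0.22, and CCR10, a receptor of plasma cell homing, at 0.49 ± 0.11 (SE, authors' deposited table). CCL3 and CCL4L2 have near-identical copies, so their levels are uncertain. Cytokines and their receptors gave 8 higher and 1 lower of 25, with a median of 0.19. IL32 went from a reconstructed mean of 26.6 to 65.5, at 1.30 ± 0.46, the common gamma chain IL2RG was at 0.89 ± 0.08, the ligands TNFSF9 and CD70 at 0.95 ± 0.26 and 0.65 ± 0.18, and IL10RA was the lower gene, at -1.17 ± 0.11 (SE, authors' deposited table). IL32 lost its call with the adjustment over every gene.

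Among antigens and drug targets of myeloma, 9 were higher and 11 lower of 37, by the authors' deposited table. SLAMF7, the target of elotuzumab, went from a reconstructed mean of 10514 to 4486, at -1.23 ± 0.09 (SE, authors' deposited table, DESeq2 adjusted p = 1.93e-36). GPRC5D was at -0.52 ± 0.15, TNFRSF17, the antigen BCMA, at -0.31 ± 0.10, and TNFRSF13B, the related receptor TACI, at -1.14 ± 0.11 (SE, authors' deposited table). FCRL5 was higher, at 0.79 ± 0.29, and CD38, the target of daratumumab, at 0.27 ± 0.15, was not called (SE, authors' deposited table). The increase of FCRL5 was not called with the adjustment over every gene. Of 28 genes of B cell identity and receptor signalling, 5 were higher and 7 lower. The kinase SYK was at -0.75 ± 0.11, PIK3AP1, an adaptor of the B cell receptor, at -0.92 ± 0.20, the costimulatory ligand CD86 at 0.82 ± 0.13, and the complement receptor CR2 at 0.68 ± 0.15 (SE, authors' deposited table).

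Death pathway genes went both ways. Caspases, death receptors and inhibitors gave 9 higher and 8 lower of 31, by the authors' deposited table. The initiator caspase CASP9 was lower, at -0.71 ± 0.23 (SE, authors' deposited table). The death receptors TNFRSF10B, FAS and TNFRSF1A and the initiator CASP8 were higher, at 0.81 ± 0.11, 0.80 ± 0.16, 0.52 ± 0.11 and 0.38 ± 0.09, while TNFRSF10A was lower at -0.57 ± 0.12 (SE, authors' deposited table). In the BCL2 family, 4 were higher and 3 lower of 15. BCL2 itself was at -0.60 ± 0.09 and the BH3-only activator BCL2L11 (BIM) at -0.45 ± 0.11, with BCL2L1 (BCL-XL) at 0.39 ± 0.08, BAX at 0.56 ± 0.11 and BMF at 0.92 ± 0.08 (SE, authors' deposited table). MCL1, the family member on which myeloma cells are known to depend, was at 0.10 ± 0.07 and was not called. NF-kB subunits and regulators gave 7 higher and 3 lower of 27, the lower count being 1 after recentring. NFKBIA, NFKB2 and the kinase MAP3K14 were at 0.69 ± 0.14, 0.68 ± 0.09 and 0.63 ± 0.11 (SE, authors' deposited table).

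Among transcription factors, AP-1 and CREB genes gave 6 higher and 1 lower of 25, by the authors' deposited table. JUND was at 0.79 ± 0.10, JUNB at 0.44 ± 0.16, MAFG at 0.45 ± 0.09 and ATF4 at 0.27 ± 0.09, and ATF6, the ER stress sensor, was the lower one at -0.41 ± 0.11 (SE, authors' deposited table). KLF and SP factors gave 5 higher and 4 lower of 20, with KLF3 and KLF6 at 0.66 ± 0.11 and 0.47 ± 0.09 and SP1 and SP3 at -0.53 ± 0.09 and -0.51 ± 0.09 (SE, authors' deposited table). MYC was at 0.22 ± 0.08 (DESeq2 adjusted p of 0.0378) and its antagonist partner gene MXI1 at 1.04 ± 0.12 (SE, authors' deposited table). Circadian and PAR bZIP genes gave 0 higher and 7 lower of 17, with a median of -0.28. The cryptochromes CRY1 and CRY2 were at -0.54 ± 0.19 and -0.55 ± 0.13, CLOCK at -0.42 ± 0.14 and the PAR factors TEF and DBP at -0.69 ± 0.21 and -0.51 ± 0.16, while ARNTL, PER1 and PER2 were not called (SE, authors' deposited table). With the adjustment over every gene, JUNB, MYC and CRY1 were not called. Genes named ZNF, mostly zinc finger repressors, gave 7 higher and 49 lower of 376, with a median of -0.20. The share of lower genes in that family, 13%, was below the background, while its share of higher genes was 1.86%.

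Chromatin modifiers gave 8 higher and 21 lower of 84, with a median of -0.05, by the authors' deposited table. The acetyltransferase KAT2B was at -0.92 ± 0.11, the arginine methyltransferase CARM1 at -0.82 ± 0.12, SUZ12 and EZH2 of the Polycomb repressive complex at -0.86 ± 0.10 and -0.38 ± 0.12, and the maintenance methylation genes DNMT1 and UHRF1 at -0.56 ± 0.09 and -0.49 ± 0.16 (SE, authors' deposited table). EZH1, the paralogue of EZH2, was higher at 0.55 ± 0.09 (SE, authors' deposited table). Homologous recombination and Fanconi anaemia genes gave 1 higher and 9 lower of 40, with a median of -0.26. The helicase BLM was at -0.70 ± 0.22 and FANCG at -0.79 ± 0.15 (SE, authors' deposited table). Cyclins, CDKs and inhibitors gave 4 higher and 3 lower of 33, among them CDK4 at -0.70 ± 0.13, CCNE1 at -0.71 ± 0.17 and the inhibitor CDKN1A (p21) at 0.77 ± 0.15 (SE, authors' deposited table).

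Of the genes called in both comparisons, 1357 were called in the same direction and 369 in opposite directions. Both counts share the scramble libraries and are not read further. The 10 opposing genes ranked first by the p of the difference are given here. Over all members, the difference between the hairpins passed for 3499 genes (27.0%) in the z test on the authors' deposited values, and for 5676 with the SE rebuilt without the shared scramble variance. KLF2, a transcription factor of lymphocyte quiescence, had a reconstructed mean of 1009.9 in scramble, 2065 with shRNA 1 and 88.3 in the libraries labelled shRNA 2. Its log2 fold changes were 1.03 ± 0.16 and -3.51 ± 0.19 in the authors' deposited tables, and their difference was 4.55 ± 0.24 (SE, adjusted p of 8.38e-75). RND3, a small GTP-binding protein without GTPase activity, was at 341, 755 and 41.5 (reconstructed means in the same order). LDHA, lactate dehydrogenase A, was at 16632, 31788 and 7791, and ANXA2 at 4063, 7332 and 1452 (reconstructed means). In each of these the scramble level lay between the other two.

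CLU, the chaperone clusterin, ARHGDIA, an inhibitor of small GTPases, HLA-DPA1, of MHC class II, and CERS2, a ceramide synthase, followed the same order. CLU was at 0.93 ± 0.12 with shRNA 1 and -1.86 ± 0.13 in the libraries labelled shRNA 2, and ARHGDIA at 0.66 ± 0.08 and -0.83 ± 0.08 (SE, authors' deposited tables). HLA-DPA1 was at 1.25 ± 0.12 and -0.90 ± 0.12, and its reads may be shared with those of HLA-DPB1 on the opposite strand and of other HLA genes (SE, authors' deposited tables). CERS2 was at 0.21 ± 0.08 and -1.48 ± 0.08 (SE, authors' deposited tables), and its small increase with shRNA 1 was not called at an adjusted p below 0.01 nor when p-values were adjusted over every gene. WDR82, of histone methyltransferase and transcription termination complexes, and KLHL24, a substrate adaptor of a ubiquitin ligase, were lower with shRNA 1. WDR82 was at -1.34 ± 0.09 and 0.32 ± 0.09, and KLHL24 at -1.43 ± 0.11 and 0.55 ± 0.11 (SE, authors' deposited tables).

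The labelled cell type was checked on its markers. All 8 listed plasma cell markers had reconstructed means above 1000 in both groups. The surface proteoglycan SDC1 (24500.1 in scramble and 29654 with shRNA 1) was called higher, and the ER protein MZB1 (13319 and 12699) and CD38 (1229 and 1484) were not called. The other 5 were called lower, namely the transcription factors IRF4 (17637 and 7613), PRDM1 (11026 and 7595) and XBP1 (21049 and 11803), and the antigens TNFRSF17 (5145 and 4150.5) and SLAMF7 (given above). IRF4 was at -1.21 ± 0.08, PRDM1 at -0.54 ± 0.09 and XBP1 at -0.83 ± 0.09 (SE, authors' deposited table). In the libraries labelled shRNA 2 they were also lower, at -1.87 ± 0.08, -0.66 ± 0.09 and -1.15 ± 0.09 (SE, authors' deposited table). The wider list of plasma cell identity gave 9 lower (47.4%) and 3 higher of 19, with a median of -0.25. Its median in the libraries labelled shRNA 2 was -0.49. Of 41 listed markers of 5 other groups of cells, namely T and NK cells, monocytes, stroma and endothelium, epithelium, and red cells and platelets, 6 had a mean of at least 50. These were CD3E, NCAM1 and PECAM1, given here or above, and KLRD1 (37.4 and 70.2), ESRP1 (91.4 and 73.1) and HBB (179 and 153). The others with a row had reconstructed means of at most 48.8 in both groups, the highest being PDGFRB (46.6 and 48.8), COL1A1 (35.1 and 36.1), EPCAM (14.3 and 29.9) and GNLY (7.35 and 21.8). CD4, CD14, CSF1R, CD163, VWF, CDH1, KRT18 and GATA1 were at most at 7.09, and markers without a row, such as CD3D and COL3A1, were not analysed here. CD3E was called higher, from 33.2 to 84.4 (reconstructed means), DESeq2 adjusted p = 0.0230 (authors' deposited table), and the call was lost when p-values were adjusted over every gene. Summed over each list, the means in scramble and with shRNA 1 were 323 and 289 for T and NK cells, 23.7 and 38.7 for monocytes, 127 and 124 for epithelium, and 197 and 181 for red cells and platelets. The stromal and endothelial sum went from 531 to 172, through PECAM1. Transcripts of the mitochondrial genome made up 12.1% and 11.4% of the summed means. Log2 fold changes moved with annotated transcript length, from a median of 0.02 in the shortest of 5 equal groups of protein-coding genes to -0.11 in the longest, and with GC content, from -0.08 in the lowest group to 0.01 in the highest. The part of expression level, transcript length and GC content in the list counts above was not tested.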

How the data were processed

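Poly(A)-selected RNA of MM.1S cells was sequenced from 2 libraries each of scramble, shRNA 1 and shRNA 2, per the labels. Salmon 0.12.0, DESeq2 1.24.0 and the build GRCh38 are named in the submitters' processing notes; they give no settings, annotation or use of strand. Since this quantifier splits shared reads by a model, levels of overlapping genes and close copies are estimates. The authors deposited 1 table per comparison. Its mean is a signal, read counts normalised and averaged over the libraries by the authors per the file headers, and identical in both tables. The log2 fold changes with their SEs, the Wald score and the p-values were computed and deposited by the authors, per the file headers. Columns with values of single libraries numbered 0, so no count test was run.

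Genes with a deposited mean of 50 or more were kept, and calls are the authors' DESeq2 adjusted p below 0.05. Group means were reconstructed from the mean and both fold changes. Coding as shRNA over scramble was checked by solving the dispersion from each table (500 genes). Its median absolute log ratio between tables was 0.00617 as coded and 0.183, 0.0895 and 0.0963 with signs turned. For the difference between hairpins, z was formed with SEs combined as if independent, two-sided, with Benjamini-Hochberg adjustment over 12977 genes. Shared scramble libraries make that SE too large. The code was tested on simulated data. Alternatives covered threshold, fold minimum, expression minimum, adjustment, centring and the SE of the difference.

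Members and lists were chosen with earlier results of these data known. Named genes were IRF3, the 20 higher and 20 lower genes whose 95% interval lay farthest from 0 at its near bound, up to 4 called members per list with the lowest p, others needed to account for a list, and the 10 opposing genes whose difference had the lowest p. Immunoglobulin and T cell receptor segments, pseudogenes and genes without a unique symbol were left out of the ranking. Some genes that this rule selects are not reported here. GENCODE 29 supplied 3' UTRs, with 1 transcript per gene (principal, then longest coding part) and a minimum length of 30 bases; promoters are from RefSeq (GRCh38.p14). Python 3.11.15, pandas 2.3.3, numpy 2.4.6, SciPy 1.17.1 and matplotlib 3.10.9 were used.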

Additional observations from a re-analysis of the deposited data

Results flagged for a closer look

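The log2 fold changes of 11 named genes differed between the hairpins by the two-sided z test of the deposited values, shRNA 1 minus the libraries labelled shRNA 2. The difference was -1.35 for IRF3, the target, a description, since shRNA 1 was chosen as the arm in which it was lower. It was 4.55 for KLF2, 4.18 for RND3, 2.79 for CLU, 2.34 for ANXA2, 2.15 for HLA-DPA1, 2.03 for LDHA, 1.69 for CERS2 and 1.5 for ARHGDIA, which were higher with shRNA 1 and lower in the libraries labelled shRNA 2. It was -1.98 for KLHL24 and -1.66 for WDR82, which went the opposite way. These 10 were picked for their difference out of 361 opposing genes that could be ranked, and the scramble libraries are shared. The adjusted p was at most 5.13e-35 for these 10.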

How the results depend on the processing

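Counts kept their direction of more lower than higher genes under each alternative run. A threshold of 0.01 gave 902 higher genes, and a minimum of 1.5-fold gave 1517 changed, 535 higher and 982 lower, because small changes in abundant genes then fall out. A threshold of 0.1, a mean of 200 or more, no minimum, adjustment over every gene and recentring gave changed counts within 1.5 times of 3509. Recentring raised the higher share of called genes from 39.3% to 47.6%. With the SE of the difference rebuilt without the shared scramble variance, 5676 genes differed between the hairpins, against 3499. IRF3 kept its call under each of these. Of the 50 other named genes, CERS2 lost its call at 0.01, at 1.5-fold and with adjustment over every gene. Of 255 called genes given with a log2 fold change and SE above, 12 lost the call with adjustment over every gene (CERS2, CRY1, EIF2AK2, FCRL5, IFIT3, IL32, ISG20, JUNB, MYC, OAS2, PSPH and STT3A) and 3 on recentring (ISG20, OAS2 and STT3A). Of 174 list counts, 51 moved by over 1.5 times at 0.01, 137 at 1.5-fold, 20 at 0.1, 21 with adjustment over every gene, 19 on recentring and 6 at a mean of 200 or more. No paired analysis was possible because the tables hold no values of single libraries. For the same reason no replicate was left out in turn. Among genes with a mean of 50 to 200 the median SE was 0.36, and 10.2% were called.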
